A study of Mus musculus with 12 samples.

Results

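Hearts of mice given DMA or its vehicle were examined for 10 genes of the antioxidant programme of the transcription factor Nrf2: Slc7a11, Gclc, Gclm, Gss, Gsr, Txn1, Txnrd1, Srxn1, Nqo1 and Hmox1. The genes were picked by name, as targets of Nrf2 that make or reduce glutathione and thioredoxin or act beside them. No measured value enters the rule, but genes and rule were chosen with earlier results of these data known. Each was represented by 1 probe with its symbol in the platform annotation, and all 10 had enough values to be tested, among 17611 genes tested and 18069 genes with a named probe. The animals were Balb/c mice, an inbred strain, gavaged once with 30 mg/kg body weight of DMA, which is given only by these letters, or with the solvent DMSO. The groups were DMA at 24 h, DMSO at 24 h, DMA at 48 h and DMSO at 48 h after gavage, with 3 one-colour arrays each, labelled with Cy5 from polyA RNA of myocardium. The labels call the arrays of a group biological replicates, while the design text describes the RNA of a group as isolated in a pool, so p-values measure the spread between these arrays, which may be technical.

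Nrf2 is encoded by Nfe2l2 and is held at a low level by Keap1, which passes it to a ubiquitin ligase for degradation. Electrophiles and oxidants modify cysteines of Keap1, and Nrf2 then accumulates, pairs with small Maf proteins and binds antioxidant response elements of its target genes, from which Bach1 can displace it. Its targets supply cysteine and glutathione, the main soluble thiol of the cell, keep thioredoxin reduced, and detoxify quinones and heme. In the heart this programme is known for limiting oxidative injury of muscle cells.

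Promoter windows show where the letters of the response element stand next to these genes. RefSeq (GRCm38.p6) gave windows of 300 bases, from 250 before to 50 after a gene's start, for 7 of the 10 genes, 9 windows in all, 3 of them of Txnrd1. Gclc, Gsr and Hmox1 were not matched. The core TGACNNNGC, searched on both strands, occurred in 3 of the 9 windows, and in 4071 of all 32851 windows of the same length (12.4%). A related form, TGAGNNNGC, was searched after these windows had been read and occurred in 2 of the 9, those of Slc7a11 and Srxn1, and in 5798 of all windows (17.6%). In these 9 windows no match of one motif overlapped a match of the other. The 3 windows with the first core are shown because they hold the element's letters, in the direction of the gene, 5′ to 3′, with the matches of either motif in capitals. All 3 matches of the first core were on the strand opposite to the gene and so are printed as the reverse complement of the core. They began 134 bases before the start in Gclm, 92 bases before it in Txnrd1 and at base 29 after it in Srxn1. In Srxn1 the second motif began 158 and 45 bases before the start. A match describes these letters and not a bound site.
Gclm (chr3:122245307-122245606, plus strand): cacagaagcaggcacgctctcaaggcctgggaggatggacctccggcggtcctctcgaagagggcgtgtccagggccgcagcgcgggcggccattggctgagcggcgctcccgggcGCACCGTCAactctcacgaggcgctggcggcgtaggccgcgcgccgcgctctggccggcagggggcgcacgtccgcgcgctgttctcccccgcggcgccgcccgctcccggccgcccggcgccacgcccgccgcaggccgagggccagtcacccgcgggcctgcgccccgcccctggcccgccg
Txnrd1 (chr10:82858956-82859255, plus strand): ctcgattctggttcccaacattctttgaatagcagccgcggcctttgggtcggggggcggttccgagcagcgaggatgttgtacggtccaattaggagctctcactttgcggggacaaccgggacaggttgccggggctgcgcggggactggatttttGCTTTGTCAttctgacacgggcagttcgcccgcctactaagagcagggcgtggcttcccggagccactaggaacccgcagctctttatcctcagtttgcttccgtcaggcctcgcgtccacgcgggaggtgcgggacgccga
Srxn1 (chr2:152105274-152105573, plus strand): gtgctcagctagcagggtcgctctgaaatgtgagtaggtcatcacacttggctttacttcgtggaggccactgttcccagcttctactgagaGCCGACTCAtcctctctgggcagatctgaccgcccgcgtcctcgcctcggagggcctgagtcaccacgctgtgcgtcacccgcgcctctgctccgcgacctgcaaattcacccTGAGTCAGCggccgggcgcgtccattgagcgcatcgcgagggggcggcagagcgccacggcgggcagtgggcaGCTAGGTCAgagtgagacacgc

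The deposited values were log2 intensities, with medians of 6.03 to 6.04 on the 24 h arrays and 6.35 to 6.36 on the 48 h arrays, as in a table scaled separately at each time. An array had values for 32230 to 35905 of the 36227 probes, and no value of the 10 genes was the lowest of its array. Of the DMA arrays, replicate 3 stood apart at either time. DMA 24 h replicate 3 had a correlation of 0.742 with the other arrays of 24 h (their median), against 0.927 to 0.963 for the other 11 arrays within their time, and its median over all genes lay 0.29 above the DMSO mean. DMA 48 h replicate 3 deviated from the rest in a trend along the probe numbers. At the probes of the 10 genes the local deviation ranged from -0.82 to 0.40 on that array and from 0 to 0.68 on DMA 24 h replicate 3, and from -0.10 to 0.13 on the other 10 arrays. Fitted differences of the 10 genes, and the medians of lists, are given with and without DMA replicate 3 of that time, and those of other named genes where the value moved by over 1.5 times. Leaving that array out keeps its DMSO partner. Some values with both replicate 3 arrays of a time left out, alternatives chosen after seeing the data, are therefore given below. Of 14 cardiomyocyte markers only Myh6, Ryr2, Nkx2-5 and Gata4 could be tested, and those of Actc1 and Atp2a2 lacked a value throughout, so the defining transcripts of heart muscle were measured only in part.

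None of the 10 genes passed the test at 24 h or at 48 h, in either direction. Differences are DMA minus DMSO on the log2 scale, from a limma fit to all 12 arrays with Benjamini-Hochberg adjustment over 35401 probes and a threshold of 0.05. At 24 h 4 of the genes were on the positive side and 6 on the negative side of 0, and the median was -0.29 beside a median of 0.085 over all 17611 genes. At 48 h 2 were positive and 8 negative, with a median of -0.17 beside 0.0100 over all genes. Adjusted p-values of the 10 genes were 0.871 to 0.974 at 24 h and 1 at 48 h in limma, and SEs were 0.39 to 0.95 at 24 h and 0.39 to 0.87 at 48 h. Over all probes 0% passed at 24 h and 0% at 48 h. At an unadjusted p under 0.05 the share of all probes was 3.03% (1071) at 24 h and 1.4% (494) at 48 h, and it was 0 of the 10 genes at either time. DMA and DMSO values did not overlap for 7.99% of all probes at 24 h and 7.22% at 48 h. Of the 10 genes 0 were free of overlap at 24 h and 1, Gsr, at 48 h. Without DMA replicate 3 of the time, 8 were positive and 2 negative at 24 h, with a median of 0.37 beside 0.0022 over all genes. At 48 h 7 were then positive and 3 negative, with a median of 0.12 beside 0.0057. With both replicate 3 arrays of 24 h left out, 7 were positive and 3 negative at 24 h (median 0.16). With both replicate 3 arrays of 48 h left out, 4 were positive and 6 negative at 48 h (median -0.033). In whole tissue, fewer cells of a type and less RNA per cell cannot be told apart.

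**Figure D1:**
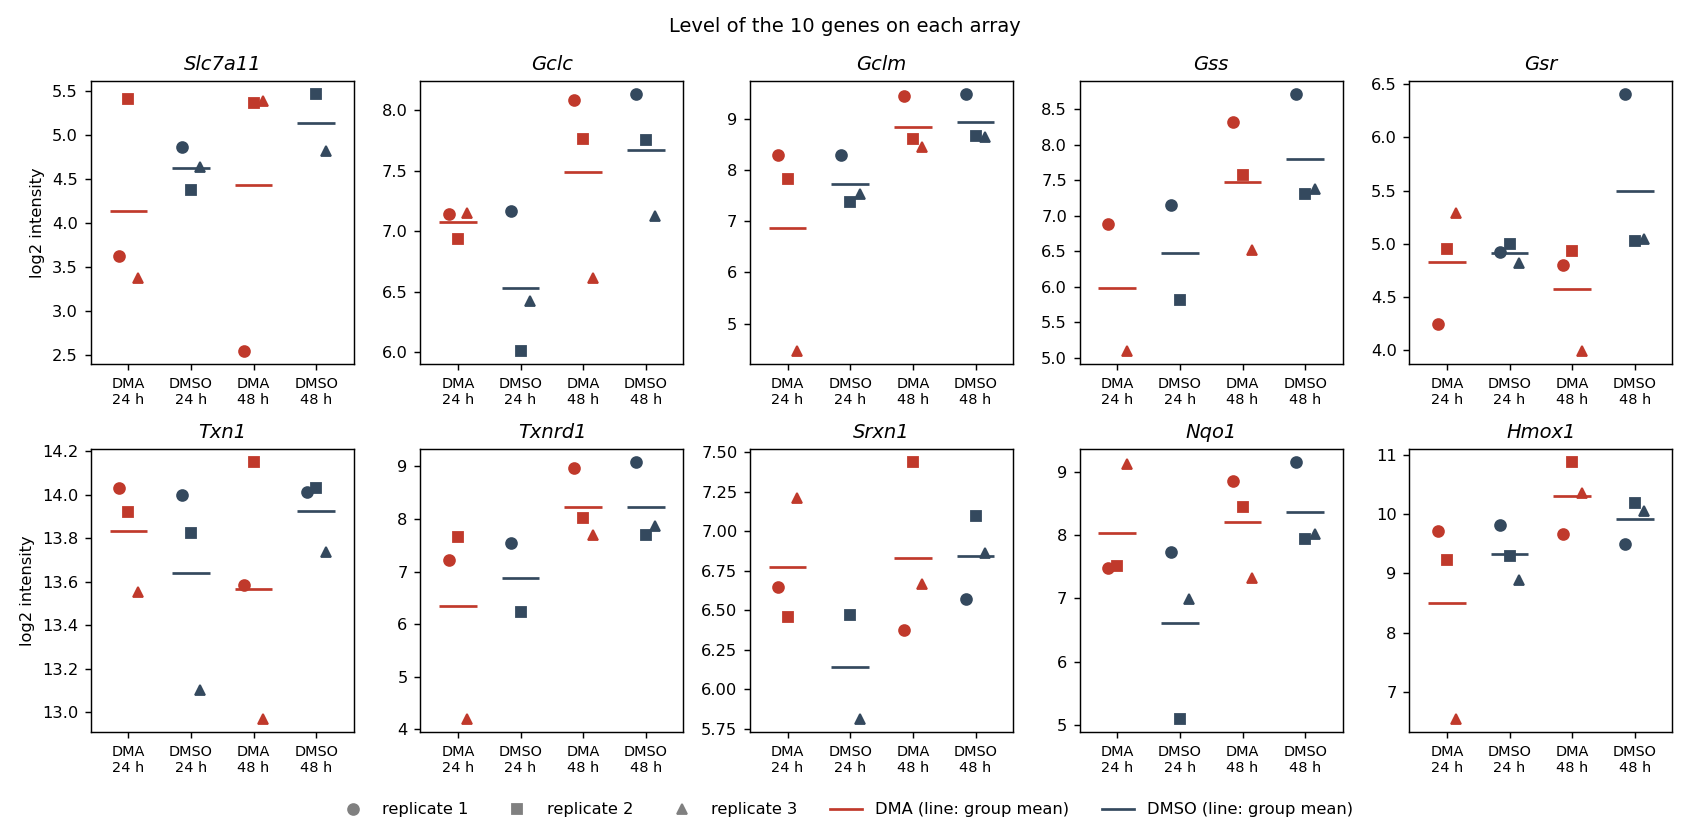
Log2 intensity of each of the 10 genes (vertical axes, one panel per gene) in DMA and DMSO hearts at 24 h and 48 h (horizontal axes). Circles, squares and triangles are replicates 1, 2 and 3 and lines are group means. The low triangles of Gclm, Gss, Txnrd1 and Hmox1 in the DMA 24 h group are replicate 3, at 4.46, 5.09, 4.19 and 6.54.

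Cysteine supply comes first in glutathione synthesis, and Slc7a11 encodes the transporter subunit that exchanges glutamate for cystine. Slc7a11 had log2 values of 3.62, 5.41 and 3.37 on the DMA arrays at 24 h, replicates 1 to 3 in order here and below, against 4.87, 4.38 and 4.63 on the DMSO arrays. Its DMA values enclosed the DMSO values, with replicate 2 the highest of the 6, and the difference was -0.49 (SE 0.78), or -0.11 without DMA replicate 3. At 48 h it read 2.54, 5.37 and 5.38 on the DMA arrays, against 5.47 and 4.82 on DMSO replicates 2 and 3. DMSO replicate 1 had no value and DMA replicate 1 was the low one. The difference of -0.71 (SE 0.87) was -1.19 without DMA replicate 3 and 0.23 over the 2 pairs in which both arrays had a value.

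The rate-limiting ligase of glutathione synthesis joins a catalytic subunit, Gclc, and a modifier subunit, Gclm. Gclc read 7.14, 6.94 and 7.15 on the DMA arrays at 24 h, against 7.16, 6.01 and 6.43 on the DMSO arrays. The 3 DMA values lay close together and DMSO replicate 1 was as high as they were, with DMSO replicates 2 and 3 lower. The mean was 7.08 ± 0.12 (SD, n = 3) after DMA, against 6.53 ± 0.58 (SD, n = 3) after DMSO, and the fitted difference was 0.54 (SE 0.46), and 0.51 without DMA replicate 3. At 48 h Gclc read 8.08, 7.76 and 6.62 on the DMA arrays, against 8.13, 7.75 and 7.13 on the DMSO arrays. The same-numbered arrays of replicates 1 and 2 lay side by side and replicate 3 was the lowest in both. The difference was -0.18 (SE 0.46), and 0.25 without DMA replicate 3.

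Gclm read 8.30, 7.82 and 4.46 on the DMA arrays at 24 h, against 8.29, 7.37 and 7.54 on the DMSO arrays. DMA replicate 3, the array that stood apart, was the lowest by far and DMA replicates 1 and 2 lay among or just above the DMSO values. The difference was -0.87 (SE 0.82) with that array and 0.33 without it. At 48 h the values were 9.45, 8.60 and 8.46 on the DMA arrays, against 9.48, 8.65 and 8.65 on the DMSO arrays. Within each number the DMA array was just below its DMSO array, by differences of -0.035, -0.056 and -0.19, and the groups overlapped almost fully. The fitted difference was -0.095 (SE 0.82), and 0.095 without DMA replicate 3. Because the spread of a gene is pooled over the 4 groups, its SE was 0.39 when DMA 24 h replicate 3 was left out of the fit.

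Gss encodes glutathione synthetase, which adds glycine in the last step. At 24 h it had a value on 2 arrays of each group, 6.88 and 5.09 on DMA replicates 1 and 3, against 7.16 and 5.81 on DMSO replicates 1 and 2. Replicate 1 was the higher array in either group. The difference was -0.50 (SE 0.84), and 0.40 without DMA replicate 3, which left 1 DMA value. At 48 h Gss read 8.32, 7.57 and 6.53 on the DMA arrays, against 8.72, 7.31 and 7.38 on the DMSO arrays. Replicate 1 was again the highest of each group, the groups overlapped, and the difference was -0.33 (SE 0.69), or 0.14 without DMA replicate 3.

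Gsr, glutathione reductase, returns oxidised glutathione to its reduced form with NADPH. It was the one gene of the 10 whose groups separated, at 48 h, beside 7.22% of all probes. At 24 h it read 4.24, 4.96 and 5.29 on the DMA arrays, against 4.92, 4.995 and 4.82 on the DMSO arrays. The DMSO values were tight and the DMA values lay on both sides of them. The difference was -0.084 (SE 0.46), or -0.31 without DMA replicate 3. At 48 h it read 4.80, 4.93 and 3.99 on the DMA arrays, against 6.41, 5.02 and 5.05 on the DMSO arrays. All 3 DMA values were below all 3 DMSO values, though DMA replicate 2 was only just below DMSO replicates 2 and 3, and DMSO replicate 1 was far above the rest. Apart from DMSO replicate 1, the values of Gsr at 48 h were below the medians of their arrays. The mean was 4.57 ± 0.51 (SD, n = 3) after DMA, against 5.49 ± 0.79 (SD, n = 3) after DMSO, and the difference was -0.92 (SE 0.46) with a limma p of 0.0702 and an adjusted p of 1. Separation of 3 arrays from 3 gives 0.1 in a two-sided exact permutation test, the smallest p that this number allows. Without DMSO replicate 1 the difference was -0.46, without DMA replicate 3 it was -0.63, and with the running median along the probe numbers taken off it was -1.07 (adjusted p of 1 each).

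Txn1 encodes cytosolic thioredoxin, a small protein that reduces disulfides of other proteins. Its values at 24 h were 14.03, 13.92 and 13.55 on the DMA arrays, against 13.997, 13.83 and 13.10 on the DMSO arrays. The order of the replicates was the same in both groups, each DMA array was above its same-numbered DMSO array, and the groups overlapped. The difference was 0.19 (SE 0.39), less than the SD of the DMSO arrays, and it was -0.047 with the running median along the probe numbers taken off and 0.33 without DMA replicate 3. At 48 h the values were 13.58, 14.15 and 12.97 on the DMA arrays, against 14.01, 14.03 and 13.74 on the DMSO arrays. DMA replicate 3 was the lowest of the 6 and DMA replicate 2 the highest. The difference was -0.36 (SE 0.39). The local deviation of DMA 48 h replicate 3 at the Txn1 probe was -0.82, and the difference was -0.056 with the running median taken off and -0.059 without the array.

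Txnrd1, the cytosolic selenoenzyme thioredoxin reductase, passes electrons of NADPH to thioredoxin. At 24 h it read 7.22, 7.65 and 4.19 on the DMA arrays, against 7.54 and 6.24 on DMSO replicates 1 and 2. DMA replicate 3 was again the lowest value and DMA replicate 2 the highest. The difference was -0.53 (SE 0.95) with DMA replicate 3 and 0.55 without it. The values at 48 h were 8.97, 8.01 and 7.70 on the DMA arrays, against 9.09, 7.70 and 7.87 on the DMSO arrays. Replicate 1 stood above replicates 2 and 3 in both groups, and the difference of 0.0091 (SE 0.85) was close to 0, and 0.27 without DMA replicate 3. Srxn1, sulfiredoxin, restores peroxiredoxins whose active cysteine has been overoxidised. Srxn1 read 6.65, 6.46 and 7.21 on the DMA arrays at 24 h, against 6.47 and 5.81 on DMSO replicates 2 and 3. DMA replicate 3 was the highest and DMSO replicate 3 the lowest. The difference was 0.63 (SE 0.45), and 0.41 without DMA replicate 3. Srxn1 at 48 h read 6.38, 7.44 and 6.67 on the DMA arrays, against 6.57, 7.10 and 6.86 on the DMSO arrays. Replicate 2 was the highest and replicate 1 the lowest in both groups, and the difference was -0.014 (SE 0.40), or 0.066 without DMA replicate 3.

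Nqo1, a quinone reductase often used as a readout of Nrf2, had the largest fitted difference of the 10 at 24 h. It read 7.48, 7.51 and 9.12 on the DMA arrays, against 7.73, 5.09 and 6.99 on the DMSO arrays. DMA replicate 3 was above all DMSO arrays, and DMSO replicate 1 was above DMA replicates 1 and 2, so the groups overlapped. The mean was 8.04 ± 0.94 (SD, n = 3) after DMA, against 6.61 ± 1.36 (SD, n = 3) after DMSO, and the difference was 1.43 (SE 0.73) with a limma p of 0.0732 and an adjusted p of 0.871. It was 0.89 without DMA replicate 3, 0.68 without DMSO replicate 2 and 2.00 without DMSO replicate 1, and in none of these fits was the adjusted p under the threshold. At 48 h Nqo1 read 8.86, 8.44 and 7.31 on the DMA arrays, against 9.16, 7.94 and 8.01 on the DMSO arrays. The groups overlapped, replicate 1 was the highest of each, and the difference was -0.16 (SE 0.73), or 0.28 without DMA replicate 3.

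Hmox1 encodes the inducible heme oxygenase, which breaks heme down to biliverdin, iron and carbon monoxide and is abundant in macrophages that clear red cells. At 24 h it read 9.71, 9.23 and 6.54 on the DMA arrays, against 9.81, 9.30 and 8.89 on the DMSO arrays. DMA replicates 1 and 2 were next to their DMSO arrays and DMA replicate 3 was low. The difference was -0.84 (SE 0.71) with that array and 0.14 without it. The 48 h values were 9.67, 10.88 and 10.35 on the DMA arrays, against 9.50, 10.19 and 10.06 on the DMSO arrays. Each DMA array was above its same-numbered DMSO array, and the groups overlapped, with replicate 1 the lowest in both. The mean was 10.30 ± 0.61 (SD, n = 3) after DMA, against 9.92 ± 0.36 (SD, n = 3) after DMSO, and the fitted difference was 0.39 (SE 0.71) with a limma adjusted p of 1, or 0.36 without DMA replicate 3. Macrophage and monocyte markers, of which 8 of 10 were tested, had a mean level of 8.48 to 9.70 on the DMA arrays and 9.14 to 9.25 on the DMSO arrays at 48 h, with 2 positive and 6 negative differences and a median of -0.28. At 24 h the mean level was 8.54 to 9.20 on the DMA arrays and 8.20 to 9.10 on the DMSO arrays, with 7 positive and 1 negative difference and a median of 0.49. With all arrays, the median of these markers at either time had the opposite sign to the fitted difference of Hmox1. Without DMA replicate 3 of the time the medians were 0.40 at 24 h and 0.21 at 48 h, beside 0.14 and 0.36 for Hmox1.

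**Figure D2:**
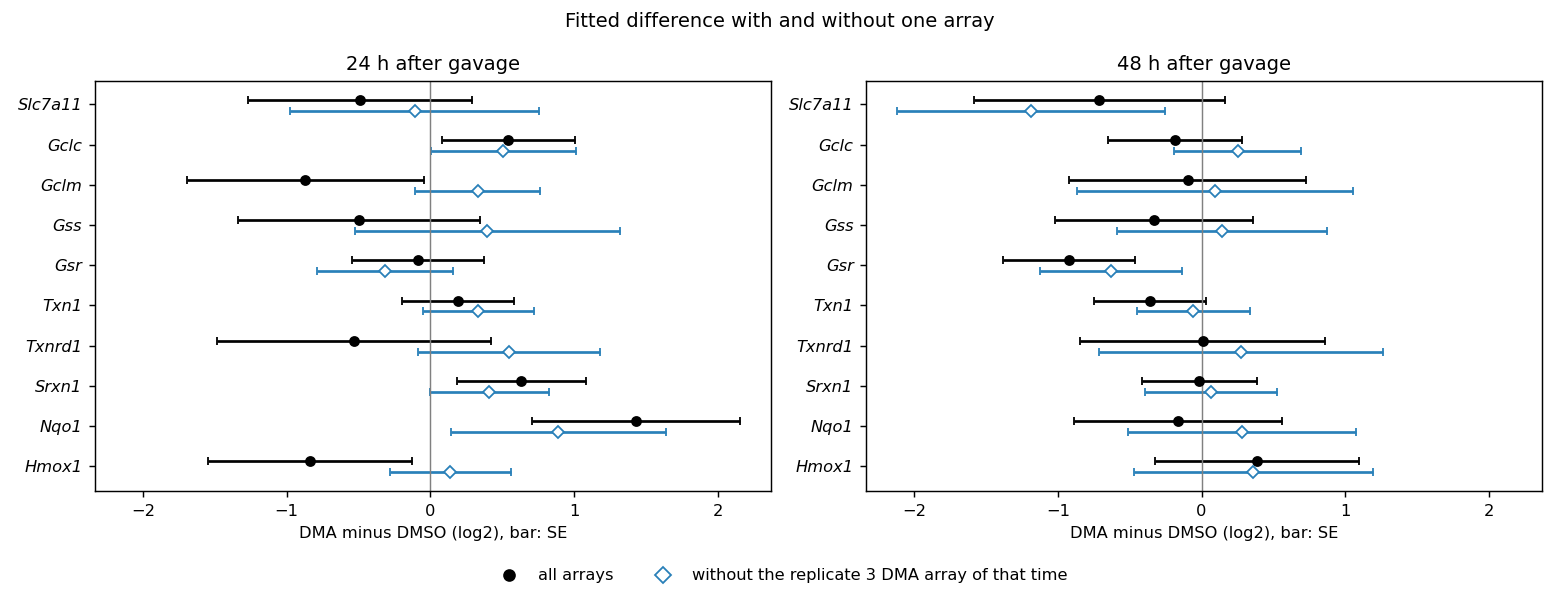
Fitted difference, DMA minus DMSO on the log2 scale (horizontal axes), of the 10 genes at 24 h (left) and 48 h (right), with SE as bars. Filled circles are from all arrays and open diamonds are without the replicate 3 DMA array of that time; without it Gclm, Gss, Txnrd1 and Hmox1 lie at 0.33, 0.40, 0.55 and 0.14 at 24 h. DMSO replicate 3 is kept in these values, and with both replicate 3 arrays left out Hmox1 lies at -0.082.

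The replicate numbers were treated as pairing DMA with DMSO arrays, which rests on correlations in these data, and differences within pairs gave a second view of the same values. At 24 h the median of the 10 genes was -0.25 in pair 1 (2 positive, 7 negative), 0.45 in pair 2 (6 positive, 3 negative) and 0.46 in pair 3 (5 positive, 3 negative), over the genes with both values. Medians over all genes in these pairs were -0.0090, -0.013 and 0.28. Pair 1 thus lay below and pairs 2 and 3 above the medians of all genes. At 48 h the median of the 10 genes was -0.19 in pair 1 (1 positive, 8 negative), 0.19 in pair 2 (7 positive, 3 negative) and -0.35 in pair 3 (2 positive, 8 negative). Over all genes the medians were -0.0087, 0.020 and 0.093, and the median of the 10 genes differed in sign between the pairs at either time. A single sign in all 3 pairs was seen at 24 h for Txn1, with differences of 0.034, 0.096 and 0.45, and for Hmox1, with -0.093, -0.070 and -2.35. At 48 h it was seen for Gclm and Gsr, which were negative, and for Hmox1, which was positive with differences of 0.17, 0.69 and 0.29. Those of Gsr were -1.61, -0.093 and -1.06. How many of all genes had a single sign in all 3 pairs was not counted, so these signs are descriptions only. Nqo1 was slightly lower after DMA in pair 1 at 24 h and higher after DMA in the other pairs, with differences of -0.25, 2.42 and 2.13. At 48 h its pair differences were -0.30, 0.50 and -0.69, with signs that differed between the pairs. With both replicate 3 arrays of 24 h left out, the median of the 10 genes at 24 h was 0.16, with Gclm at 0.23 and Txnrd1 at 0.55, Hmox1 at -0.082 and Srxn1 at 0.080. Gss was at 0.40 there, but its one complete pair, of replicate 1, differed by -0.27.

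**Figure D3:**
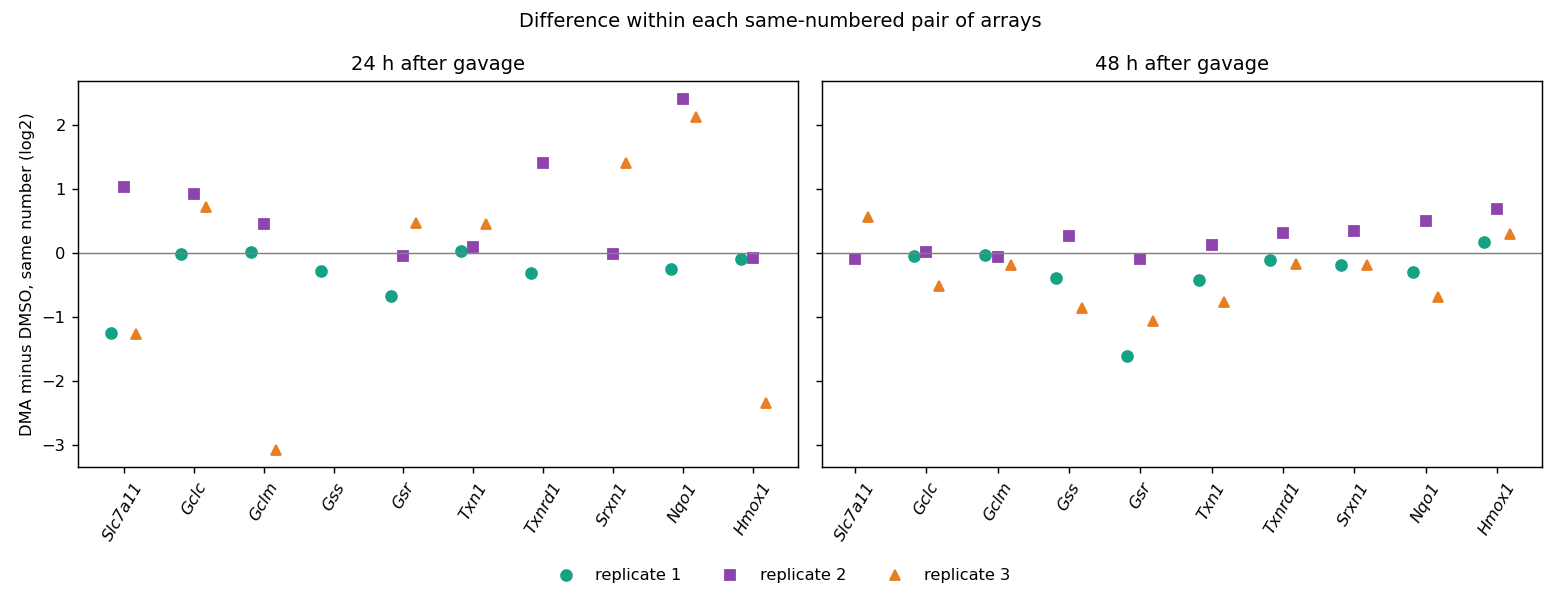
Difference within each same-numbered pair of arrays, DMA minus DMSO on the log2 scale (vertical axis), for the 10 genes at 24 h (left) and 48 h (right). Each symbol is a pair; the pair 3 differences of -3.08 for Gclm and -2.35 for Hmox1 at 24 h are the lowest points, and a gene without a symbol in a pair lacked a value on one of its arrays.

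Several of the genes ranked the replicates alike after DMA and after DMSO at 48 h, a pattern picked out after the values were seen, while at 24 h the share that did was near that of all genes. Replicate 1 of Txnrd1 exceeded the mean of its group's other arrays by 1.30 after DMA and 1.30 after DMSO at 24 h, and by 1.12 after DMA and 1.30 after DMSO at 48 h. For Gss the excess was 1.79 after DMA and 1.34 after DMSO at 24 h, and 1.27 after DMA and 1.37 after DMSO at 48 h. For Gclm it was 2.16 after DMA and 0.84 after DMSO at 24 h, and 0.92 after DMA and 0.83 after DMSO at 48 h. The excesses after DMA at 24 h were enlarged by DMA replicate 3, the array that stood apart. It read 4.19 for Txnrd1 and 4.46 for Gclm, where replicate 2 read 7.65 and 7.82. For Gss that array, at 5.09, was the only other DMA value. These 3 genes were thus highest on replicate 1 in every group except for Txnrd1 after DMA at 24 h, where replicate 2 was higher. Hmox1 and Srxn1 ran the other way at 48 h, with replicate 1 below the mean of the other arrays by differences of -0.95 and -0.68 after DMA and -0.62 and -0.41 after DMSO. At 48 h replicate 1 was the highest array of both groups for 5 of the 9 genes with all 6 values (55.6%), beside 20.6% of 14918 genes, and the same replicate, whichever it was, was highest in both for 8 of 9 (88.9%), beside 55.2%. At 24 h replicate 1 was highest in both groups for 3 of 7 genes (42.9%), beside 10.99% of 14615 genes, and these 3 were also the only ones with the same replicate highest in both groups (42.9%), beside 42.4%. These shares are descriptions, since the genes share their arrays. The median deviation of the 10 genes from the DMSO mean of their time was also taken for each array. It was 0.39, 0.31 and -0.67 on the DMA arrays and 0.56, -0.31 and -0.15 on the DMSO arrays at 24 h. At 48 h it was 0.083, 0.083 and -0.74 on the DMA arrays and 0.56, -0.097 and -0.33 on the DMSO arrays. Replicate 1 thus stood out at 48 h on the DMSO side and was level with replicate 2 on the DMA side. The lowest array of each time was replicate 3 of the DMA group, and the highest was replicate 1 of the DMSO group.

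**Figure D4:**
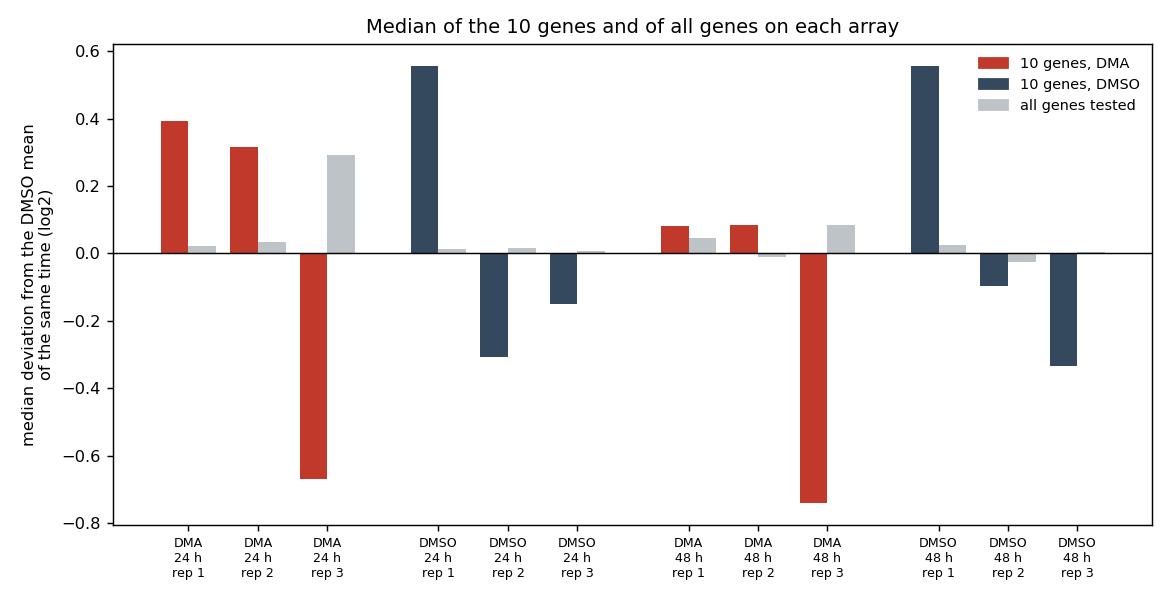
Median deviation of the 10 genes (coloured bars) and of all genes tested (grey bars) from the DMSO mean of the same time, on the log2 scale, for each array (horizontal axis, rep for replicate). DMA replicate 3 is lowest at 24 h and 48 h, at -0.67 and -0.74, and DMSO replicate 1 is highest, at 0.56 at both times.

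The DMA effect was also compared between the times, as the difference at 48 h minus the difference at 24 h. Over all probes 0% passed this test and 1.96% (695) had an unadjusted p under 0.05. Of the 10 genes 0 did either, with a limma adjusted p of 0.999 each. The values ranged from -1.60 (SE 1.03) for Nqo1, whose differences were -0.16 at 48 h and 1.43 at 24 h, to 1.22 (SE 1.00) for Hmox1, with 0.39 at 48 h and -0.84 at 24 h. Without DMA 24 h replicate 3 the value of Hmox1 was 0.25. The median of the 10 genes was -0.39, beside -0.041 over all genes. Levels themselves can be set across the times only as a description, because the separate scaling and the time cannot be told apart. In DMA hearts 8 of the 10 means were higher at 48 h than at 24 h, with a median of 0.35 beside 0.36 over all genes. In DMSO hearts 10 of 10 were higher, with a median of 0.92 beside 0.42 over all genes. The values of the times did not overlap, with those of 48 h higher, for 2 of the 10 genes after DMA, beside 15.4% of all probes, and for 6 after DMSO, beside 26.1%. Among the 6, Gss, Txnrd1 and Srxn1 had only 2 DMSO values at 24 h, which makes overlap less likely. Gsr separated narrowly, with 4.995 the highest DMSO value at 24 h and 5.02 the lowest at 48 h. These counts include DMA replicate 3, and a difference between the agents was not tested.

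Around these genes, 7 lists with 85 other genes of the pathway were followed, of which 70 were tested. At 24 h 34 were positive and 36 negative with a median of -0.016, 2 had an unadjusted p under 0.05 (Chac1 and Prdx1) and 0 passed. Without DMA replicate 3, 53 were positive and 17 negative with a median of 0.36, beside 0.0022 over all genes, and the medians of the 7 lists were 0.090 to 0.53. DMSO replicate 3 is kept in these values, and the lists were not followed with both replicate 3 arrays left out. In that setting Cth, Taldo1, Me1, Prdx1 and Sod3, named below, were at -0.12, -0.084, -0.052, -0.048 and -0.39. All of these were positive when only DMA replicate 3 was left out. Nfe2l2, Gstm1, Chac1, Ftl1 and Cbr1 stayed positive with both arrays left out. Taldo1 and Prdx1 were negative with all arrays too. With all arrays, regulators of Nrf2 had 4 positive and 6 negative differences among 10 genes and a median of -0.26. Nfe2l2, the gene of Nrf2 itself, read 10.66, 10.63 and 11.22 on the DMA arrays, against 10.90, 8.96 and 9.39 on the DMSO arrays, a difference of 1.09 (SE 0.56), and 0.90 without DMA replicate 3. DMSO replicate 1 lay among the DMA values. DMSO replicates 2 and 3 were lower than all DMA values, as for Gclc. Bach1, the repressor at the same elements, differed by -1.36 (SE 0.80), and by -0.11 without DMA replicate 3. Other genes of the thioredoxin and glutaredoxin systems had 3 positive and 7 negative differences among 10 genes and a median of -0.34. Among them Txnl1, a thioredoxin-like protein, differed by -2.03 (SE 1.12) and Glrx5, the mitochondrial glutaredoxin, by -0.58 (SE 0.44). Without DMA replicate 3 these were -0.21 and -0.098. Glutathione peroxidases and transferases had 9 positive and 11 negative differences among 20 genes and a median of -0.022. Gsta4, a transferase of lipid aldehydes, differed by -2.05 (SE 0.96), or -0.55 without DMA replicate 3. Gstm1, a transferase of the mu class, differed by 0.53 (SE 0.37), with no value on DMSO replicate 1. DMA and DMSO values of Gsta4 and of Gstm1 did not overlap, beside 7.99% of all probes at 24 h. Both were named for their small unadjusted p, and genes without overlap were not counted over the 70.

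Genes of glutathione turnover, precursor supply and export had 9 positive and 4 negative differences among 13 genes and a median of 0.14 at 24 h. Chac1, which degrades glutathione, read 5.61, 5.66 and 7.32 on the DMA arrays, against 5.65, 2.56 and 3.71 on the DMSO arrays. DMSO replicate 1 was level with DMA replicates 1 and 2 and the groups overlapped. The difference was 2.22 (SE 0.80) with a limma p of 0.0175 and an adjusted p of 0.871, and 1.66 without DMA replicate 3. Cth, which makes cysteine from cystathionine, differed by 0.90 (SE 0.62), or 0.40 without DMA replicate 3. NADPH supply had 2 positive and 2 negative differences among 4 genes and a median of -0.23, with Taldo1, of the pentose phosphate pathway, at -1.02 (SE 1.00) and Me1, malic enzyme, at 0.28 (SE 0.52). Taldo1 was at 0.30 and Me1 at 0.042 without DMA replicate 3. Heme, iron and quinone metabolism had 5 positive and 3 negative differences among 8 genes and a median of 0.26. Ftl1, the ferritin light chain, differed by 1.37 (SE 0.63) and Cbr1, a carbonyl reductase, by 1.00 (SE 0.55), and without DMA replicate 3 by 1.44 and 0.29. Peroxiredoxins and radical enzymes had 2 positive and 3 negative differences among 5 genes and a median of -0.043. Prdx1, a peroxidase that thioredoxin reduces, read 12.98 and 7.55 on DMA replicates 2 and 3, against 13.82, 12.23 and 12.75 on the DMSO arrays. Only DMA replicate 3 was low, and the difference was -2.67 (SE 1.19) with it and 0.042 without it. Sod3, the extracellular superoxide dismutase, differed by 0.90 (SE 1.22), or 0.56 without the array.

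At 48 h 25 of the 70 were positive and 45 negative with a median of -0.086, and 0 had an unadjusted p under 0.05. Without DMA replicate 3, 47 were positive and 23 negative with a median of 0.055, beside 0.0057 over all genes, and the medians of the 7 lists were -0.014 to 0.21. DMSO replicate 3 is kept in these values too. With both replicate 3 arrays of 48 h left out, Mafk was at -0.18 and Abcc2 at -0.49, and Akr1b8 at 0.079. With all arrays, regulators of Nrf2 had 2 positive and 8 negative differences among 10 genes and a median of -0.18. The small Maf partners Mafg and Mafk differed by -0.64 (SE 0.70) and -0.51 (SE 0.67), and by 0.015 and 0.029 without DMA replicate 3. The other thioredoxin and glutaredoxin genes had 3 positive and 7 negative differences among 10 genes and a median of -0.13. Glrx5 read 13.41, 13.35 and 13.56 on the DMA arrays, against 13.996, 13.83 and 13.79 on the DMSO arrays, and differed by -0.43 (SE 0.44). Each DMA value was below each DMSO value, beside 7.22% of all probes without overlap at 48 h. Such genes were not counted over the 70. Txnip, which binds and inhibits thioredoxin, differed by -0.30 (SE 0.40). Peroxidases and transferases had 9 positive and 11 negative differences among 20 genes and a median of -0.012, with Gpx2, best known from the gut, at 0.68 (SE 0.47) and Gpx7, of the endoplasmic reticulum, at -0.54 (SE 0.62). These were 0.42 and -0.14 without DMA replicate 3. Turnover, supply and export had 5 positive and 8 negative differences among 13 genes and a median of -0.28. The export pumps of glutathione conjugates Abcc1 and Abcc2 differed by -0.99 (SE 0.98) and -1.14 (SE 0.97), and by -0.27 and 0.14 without DMA replicate 3. NADPH supply had 2 positive and 2 negative differences among 4 genes and a median of -0.21, with Me1 at -0.46 (SE 0.58) and the cytosolic isocitrate dehydrogenase Idh1 at -0.74 (SE 1.18). Both were positive without DMA replicate 3, at 0.14 and 0.30. Heme, iron and quinone metabolism had 3 positive and 5 negative differences among 8 genes and a median of -0.13, and in it Blvrb, a biliverdin reductase downstream of Hmox1, differed by 0.23 (SE 0.40) and the aldo-keto reductase Akr1b8 by -0.37 (SE 0.59). Without the array these were 0.14 and -0.043. Peroxiredoxins and radical enzymes had 1 positive and 4 negative differences among 5 genes and a median of -0.19, with Sod2, the mitochondrial superoxide dismutase, at -0.19 (SE 0.41) and Sod3 at -0.58 (SE 1.22), the last of which was 0.75 without DMA replicate 3.

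Markers of the cell types found in heart tissue were set beside these results. At 48 h, where 8 of the 10 genes were negative, 9 of 9 endothelial markers tested were negative with a median of -0.53, and their mean level was 7.93 to 9.08 on the DMA arrays and 8.83 to 9.43 on the DMSO arrays. At 24 h 5 of the 9 were positive and 4 negative, with a median of 0.34. Fibroblast markers had medians of 0.022 at 24 h and 0.045 at 48 h over 8 genes, with a mean level of 7.85 to 10.58 on the DMA arrays and 9.39 to 10.98 on the DMSO arrays at 24 h, and the low end of the DMA range was replicate 3. The 4 cardiomyocyte markers tested had medians of 0.49 at 24 h and 0.080 at 48 h. Smooth muscle and pericyte markers had medians of 0.039 and -0.18 over 7 genes, adipocyte markers 0.010 and 0.077 over 4, and lymphocyte markers 0.37 and 0.22 over 5, at 24 h and 48 h in that order. Red cell markers, with 3 of 7 tested, had medians of 0.47 at 24 h and -0.44 at 48 h. Without DMA replicate 3 of the time, 8 of 9 endothelial markers were positive at 24 h (median 0.80) and 3 positive and 6 negative at 48 h (median -0.14). Fibroblast medians were then 0.70 at 24 h and 0.20 at 48 h, cardiomyocyte -0.060 and 0.22, smooth muscle and pericyte 0.17 and -0.20, adipocyte -0.25 and -0.25, lymphocyte 0.23 and 0.16, and red cell 0.21 and -0.36, in the same order. No marker passed the test, and the part of these cell types in the values of the 10 genes was not tested.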

How the data were processed

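RNA of 12 mouse heart samples was measured on one-colour arrays. The authors deposited log2 values for 36227 probes. How these were corrected for background and normalized is not given in the sources used here. Their medians have the form of values scaled separately at each time. The platform annotation gave 1 symbol to 21615 probes, several to 681 and none to 13931. Probes with at least 2 values in each group were tested, which kept 35401 and left out 826. The 10 genes had 1 probe each, with symbols found in RefSeq (GRCm38.p6).

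limma 3.58.1 in R 4.3.3 fitted 1 term per group over all 12 arrays (lmFit and eBayes) with Benjamini-Hochberg adjustment and a threshold of 0.05, after a test on simulated data. Missing values were left out of a gene's fit and none were imputed. Tables and plots used Python 3.11.15 and matplotlib 3.10.9. Scan date or slide was not given in the sources used here, and the number of arrays limits the precision.

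The labels number the replicates 1 to 3 in each group. Deviations from the group means correlated at 0.105 to 0.190 between same-numbered arrays at 24 h and at 0.276 to 0.335 at 48 h, against -0.0981 to -0.0118 and -0.208 to -0.0926 between different numbers, and every same-numbered pair was over 0.1. The numbers were therefore treated as pairs, a pairing that rests on the data alone. Deviations from a group mean cancel over the arrays of the group. The negative values between different numbers thus follow in part from the positive values between same numbers. Fits with the number as a block were alternatives, beside arrays left out, array weights, probe filters, quantile normalization and removal of a running median over 1001 probe numbers.

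The 10 genes, the lists and the rules were chosen with earlier results of these data known. All 10 genes were named, and of each pathway list the 2 genes with the smallest unadjusted p at each time.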

Additional observations from a re-analysis of the deposited data

Results flagged for a closer look

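Hmox1 differed in sign between the times in every pair of arrays. Its mean pair difference, DMA minus DMSO, was -0.84 at 24 h, with -0.093, -0.070 and -2.35 in the 3 pairs, and 0.39 at 48 h, with 0.17, 0.69 and 0.29. The signs alone are no test of the difference, and the share of all genes with such signs was not counted. In limma the difference between the times was 1.22 (SE 1.00, adjusted p = 0.999), and it was 0.47 with both replicate 3 arrays of 24 h left out, where the mean of the 24 h pairs 1 and 2 was -0.082.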

How the results depend on the processing

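In the alternatives tried, none of the 10 genes passed at either time. Over 236 fitted values per time, 215 at 24 h and 207 at 48 h kept their sign. Many of these fits could not turn a sign, such as those that only left out an array of the other time. The counts are therefore no measure of how stable the differences were. Slc7a11, Gclc, Srxn1 and Nqo1 kept their sign in all fits at 24 h, and Gsr, Txn1 and Hmox1 at 48 h. The smallest adjusted p was 0.534 at 24 h and 1.00 at 48 h. Values below are DMA minus DMSO; the cause of a change was not tested. With the replicate block Txnrd1 differed by 0.55 at 24 h, and Slc7a11 by 0.23 and Me1 by 0.14 at 48 h, since only complete pairs counted; Nqo1 at 24 h had a p of 0.0396 (adjusted p = 0.676) and the block changed no call.

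Listed for each setting are the genes whose sign turned, unless said to have stayed. With array weights these were at 24 h Gclm 0.37, Gss 0.44, Txnrd1 0.55, Hmox1 0.22 and Taldo1 0.32, with a median of 0.44 over the 10 genes, and at 48 h Gclc 0.065, Srxn1 0.086, Nqo1 0.10 and Sod3 0.19. Slc7a11 and Gsr stayed negative with array weights, at -0.27 and -0.35 at 24 h and -0.74 and -0.68 at 48 h. Gclm, Gss and Txn1 also stayed negative with them at 48 h, at -0.012, -0.063 and -0.15. Without both replicate 3 DMA arrays the genes that turned were at 24 h Gclm 0.33, Gss 0.40, Txnrd1 0.55, Hmox1 0.14, Taldo1 0.30 and Prdx1 0.042 (median 0.37) and at 48 h Gclc 0.25, Gclm 0.095, Gss 0.14, Srxn1 0.066, Nqo1 0.28, Abcc2 0.14, Idh1 0.30, Me1 0.14, Mafg 0.015, Mafk 0.029 and Sod3 0.75 (median 0.12), and 3 probes passed at 48 h. Settings chosen after seeing the data were the removal of both replicate 3 arrays of 48 h, with Nqo1 0.10, Srxn1 0.075, Akr1b8 0.079, Idh1 0.082, Mafg 0.030, Me1 0.14 and Sod3 0.45, while Gclc -0.020, Gclm -0.046, Gss -0.068, Mafk -0.18 and Abcc2 -0.49 stayed negative; the removal of both replicate 3 arrays of 24 h, with Gclm 0.23, Gss 0.40, Txnrd1 0.55, Cth -0.12, Me1 -0.052 and Sod3 -0.39 and a median of 0.16, while Hmox1 -0.082, Taldo1 -0.084 and Prdx1 -0.048 stayed negative; and the removal of the running median, with Txn1 at -0.047 at 24 h and Txnrd1 at -0.080 at 48 h. Quantile normalization gave Txnrd1 -0.0054 at 48 h.

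Leaving out 1 array at a time gave, at 24 h, Gclm -1.59 to 0.33, Gss -1.39 to 0.40, Gsr -0.31 to 0.21, Txn1 -0.076 to 0.37, Txnrd1 -1.18 to 0.55, Hmox1 -1.45 to 0.14, Prdx1 -5.39 to 0.042, Taldo1 -1.72 to 0.30 and Sod3 -0.046 to 1.62, and a median of the 10 genes of -0.33 to 0.37. Besides DMA replicate 3, signs turned without DMSO replicate 1 for Gss and Txnrd1 and the median, without DMA replicate 1 for Gsr, and without DMSO replicate 3 for Txn1 and Sod3. Prdx1 passed without DMA replicate 2 (-5.39, limma adjusted p = 0.0328), which left DMA replicate 3 as its only DMA value. At 48 h the ranges were Slc7a11 -1.19 to 0.23, Gclc -0.48 to 0.25, Gclm -0.40 to 0.18, Gss -0.76 to 0.14, Txnrd1 -0.36 to 0.44, Srxn1 -0.32 to 0.21, Nqo1 -0.49 to 0.28, Abcc2 -2.20 to 0.14, Idh1 -1.51 to 0.30, Mafg -0.98 to 0.015, Mafk -0.98 to 0.029, Me1 -0.92 to 0.14, Sod2 -0.31 to 0.042 and Sod3 -1.46 to 0.75, with a median of -0.40 to 0.12. Signs turned without DMA replicate 3 for Gclc, Gclm, Gss, Srxn1, Nqo1, Abcc2, Idh1, Mafg, Mafk, Me1 and Sod3, without DMSO replicate 1 for Gclc, Gclm, Gss, Nqo1, Sod2, Sod3 and the median, without DMA replicate 1 for Slc7a11, Txnrd1 and Srxn1, without DMA replicate 2 for Gclm, without DMSO replicate 2 for Srxn1 and Txnrd1 and without DMSO replicate 3 for Txnrd1. The probes that passed numbered 0 to 14 at 24 h (9 without DMA replicate 1, 14 without DMA replicate 2), 0 to 1 at 48 h (1 each without DMA replicate 1 and DMSO replicate 2) and 0 to 4 for the difference between the times (4 and 1 without DMA 24 h replicates 1 and 2). At an unadjusted p under 0.05 the count ran from 501 to 3027 at 24 h, 359 to 1040 at 48 h and 463 to 1500 between the times.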
